A study of Mus musculus with 15 samples.

Results

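The genes of pleiotrophin (Ptn) and midkine (Mdk), of the 4 syndecans (Sdc1, Sdc2, Sdc3 and Sdc4) and of 4 glypicans (Gpc1, Gpc3, Gpc4 and Gpc6) were followed by bulk RNA-seq through mouse cultures labelled endothelial or stromal. These 10 genes, of 44674 in the table, were chosen by name and with their levels over the conditions known. Their values are therefore given as a description, as CPM (a library's counts for the gene, scaled to a common library total), and carry no p-value.

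The 15 libraries came from 8 conditions. P0 Emcn+ and P0 Emcn-, both labelled BMEC (bone marrow endothelial cell) and with or without the surface sialomucin endomucin, were primary whole-marrow cultures sorted at day 14. Lung was the matching primary lung culture, Emcn- according to the study's methods. P1, P2, P3 and P4 Emcn- were cells carried through further passages, and MSC were bone marrow mesenchymal stromal cells. P4 had 1 library and every other condition had 2. All libraries bear the genotype label WT, but by the methods the endothelial cultures came from Tie2-CreERT2;Rosa26-tdTomato mice given tamoxifen and the MSC from Osx-Cre;Rosa26-tdTomato mice, aged 4 to 6 months. The Tek promoter drives the first Cre, so red cells are those in which that promoter was active at induction, and the Osx (Sp7) promoter drives the second, which marks osteolineage cells. Endothelial cultures were kept in EGM-2, a medium with heparin and growth factors, and MSC in MesenCult, so cell type and medium cannot be told apart for the MSC. One mouse usually gave 1 dish. Which mouse gave which library is not in the labels, and replicate error here is the spread between libraries.

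Pleiotrophin and midkine are the only members of a family of small secreted, heparin-binding growth factors. They bind the heparan sulfate and chondroitin sulfate chains of proteoglycans and signal through receptors such as the phosphatase Ptprz1, the kinase Alk, the endocytic receptor Lrp1, nucleolin and integrins. Syndecans are transmembrane proteoglycans and glypicans are held in the membrane by a lipid anchor. Both carry heparan sulfate that keeps growth factors, morphogens and chemokines at the cell surface, and pleiotrophin from marrow endothelial and stromal cells is known as a factor that maintains haematopoietic stem cells.

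The libraries held 9914620 to 39718807 counts, the lowest being P0 Emcn- replicate 2, so 3 counts, the limit that a count of 0 allows, stood for 0.0755 to 0.303 CPM. Labels were set against marker lists. The summed CPM of 10 endothelial genes was 10193 to 12232 in P0 Emcn+, 72.7 to 268 in P0 Emcn-, 180.1 to 786 in lung, 45.9 to 71.7 in P1 to P4 and 43.0 to 352 in MSC. The sum of 9 stromal genes ran from 460.3 to 711 in P0 Emcn+ and from 4345 to 23668 elsewhere. The stromal sum exceeded the endothelial sum in every library outside P0 Emcn+, which goes against the endothelial label of P0 Emcn-, lung and the passages, and these are called by their condition names only. Apart from lung replicate 2, no library labelled Emcn- or lung held more summed endothelial RNA than the higher MSC library. Gene by gene, 2 of the 10 were lower and 1 higher in both MSC libraries than in both P0 Emcn- libraries. Against P1 to P3, 1 was lower and 5 were higher in MSC. Such separation is common with so few libraries: between P0 Emcn+ and P0 Emcn- it held for 61.5% of all genes tested. Nothing is read from these counts. Tek was lower in MSC both times, at 5.47 to 5.51 CPM against 20.3 to 49.4 CPM in P0 Emcn-. Cdh5, the endothelial cadherin, averaged 62.9 CPM in P0 Emcn- and 0.121 CPM in P3 against 5670 CPM in P0 Emcn+. None of the 10 endothelial and 9 stromal genes was at 0 apart from Cldn5 in the P4 library. In bulk libraries, fewer cells of a type and less RNA per cell cannot be told apart. The labels name 4 batches. P0 and lung replicate 1 were batch d and replicate 2 batch a, replicate 1 of P1 to P3 and P4 were batch b, and replicate 2 of P1 to P3 and both MSC were batch c.

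The 4 syndecan proteins end alike, which is why their coding ends are shown: the last 4 codons before the stop encode the short tail that PDZ-domain adaptors such as syntenin (Sdcbp) and Cask bind. The 60 bases up to and including the stop codon are given 5′ to 3′ in coding direction from the GENCODE M21 annotation of GRCm38, with those 4 codons in capitals. Each stretch lies in exon 5 of 5.
Sdc1 (chr12:8791748-8791807, plus strand): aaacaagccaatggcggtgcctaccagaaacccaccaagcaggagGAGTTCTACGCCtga
Sdc2 (chr15:33032481-33032540, plus strand): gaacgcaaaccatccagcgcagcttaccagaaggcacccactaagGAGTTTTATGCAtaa
Sdc3 (chr4:130822750-130822809, plus strand): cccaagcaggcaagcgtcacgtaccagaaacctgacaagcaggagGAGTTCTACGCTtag
Sdc4 (chr2:164426086-164426145, minus strand): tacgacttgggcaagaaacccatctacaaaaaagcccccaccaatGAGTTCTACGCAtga
In capitals, Sdc1, Sdc3 and Sdc4 shared 11 of 12 bases in each pair, and Sdc2 shared 9, 9 and 10 of 12 with Sdc1, Sdc3 and Sdc4. Over the whole 60 bases, identity ran from 22 for Sdc2 with Sdc3 to 38 for Sdc1 with Sdc3. The transcripts thus keep the adaptor end in common while their levels, below, differed widely.

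Promoter stretches are shown for Ptn and Gpc3, the members that stood apart in lung, and for Sdc3, the member that was higher in P0 Emcn+. RefSeq windows (GRCm38.p6) matched 6 of the 10 members, namely Ptn, Sdc1, Sdc3, Sdc4, Gpc3 and Gpc4, but not Mdk, Sdc2, Gpc1 or Gpc6. The 200 bases ending 51 bases before the start annotated for these windows are given 5′ to 3′ in the direction of the gene. Gene coordinates printed below are from GENCODE, whose starts of Ptn and Gpc3 lie at other distances from the windows. Capitals mark matches, on either strand, to 5 motifs: the TATA box TATAAA, the GC box GGGCGG, the E-box CACGTG, the ETS site CCGGAAG and the AP-1 site TGANTCA.
Ptn (chr6:36810230-36810429, minus strand): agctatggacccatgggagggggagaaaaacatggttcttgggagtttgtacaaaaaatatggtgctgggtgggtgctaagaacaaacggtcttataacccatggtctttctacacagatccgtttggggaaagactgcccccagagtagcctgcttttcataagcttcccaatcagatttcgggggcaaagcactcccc
Gpc3 (chrX:52614025-52614224, minus strand): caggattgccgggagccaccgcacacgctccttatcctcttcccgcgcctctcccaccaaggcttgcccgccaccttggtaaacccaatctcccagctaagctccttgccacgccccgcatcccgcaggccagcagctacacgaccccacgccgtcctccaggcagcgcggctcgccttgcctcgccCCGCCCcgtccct
Sdc3 (chr4:130792287-130792486, plus strand): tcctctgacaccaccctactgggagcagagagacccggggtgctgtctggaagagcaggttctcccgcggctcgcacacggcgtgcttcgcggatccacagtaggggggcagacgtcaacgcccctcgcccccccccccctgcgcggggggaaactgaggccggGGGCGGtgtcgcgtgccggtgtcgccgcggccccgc
The Ptn window held none of the 5 motifs and 3 CpG at 49% GC. Gpc3 and Sdc3 each held 1 GC box, with 18 and 22 CpG at 69% and 73% GC. Among 32851 promoter windows of the same length, 24.6% held the GC box, 9.14% the TATA box, 4.34% the E-box, 3.98% the ETS site and 5.57% the AP-1 site, and the median was 4 CpG at 51.5% GC. A match describes these letters only, and the bases nearest the start, which the windows leave out, were not searched for any motif.

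Pleiotrophin (chr6:36714929-36810220, minus strand) was highest in lung. Its values were 158 and 105 CPM in lung replicates 1 and 2, 19.7 and 24.3 CPM in MSC and only 0.252 and 1.01 CPM in P0 Emcn-. The P0 Emcn+ libraries held 0 counts and 1 count, the latter 0.0386 CPM. Passaged cells lay between, with 2.50 and 5.17 CPM at P1, 5.34 and 11.4 CPM at P2, 8.21 and 28.9 CPM at P3 and 11.8 CPM at P4. Lung stood clear of every other condition, MSC overlapped with P3, and P3 overlapped with P4 and with P2. By mean, P4, P2, P1, P0 Emcn- and P0 Emcn+ followed in that order without overlap between neighbours. In all 3 passages with 2 libraries the batch c library was the higher, by 2.07-fold at P1 and 3.52-fold at P3, so the P3 mean of 18.5 ± 14.6 CPM (SD, n = 2) rests largely on replicate 2.

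Midkine (chr2:91929805-91932297, minus strand) had another order. P0 Emcn- held 61.6 and 22.0 CPM, P1 held 36.4 and 43.5 CPM, and lung held 45.2 and 22.5 CPM, and these 3 conditions overlapped. P2 had 11.6 and 20.5 CPM, P3 had 7.31 and 16.5 CPM, and P4 had 6.76 CPM. MSC, at 0.786 and 3.07 CPM, and P0 Emcn+, at 1.93 and 1.12 CPM, were lowest and overlapped with each other. Midkine was thus at its lowest in the libraries with the most endothelial marker RNA and in MSC, and pleiotrophin was near 0 in P0 Emcn+ but not in MSC. The MSC library with more midkine, replicate 2, also held more of the summed endothelial markers (352 against 43.0 CPM in replicate 1), and the part of those cells in its midkine was not tested.

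**Figure D1:**
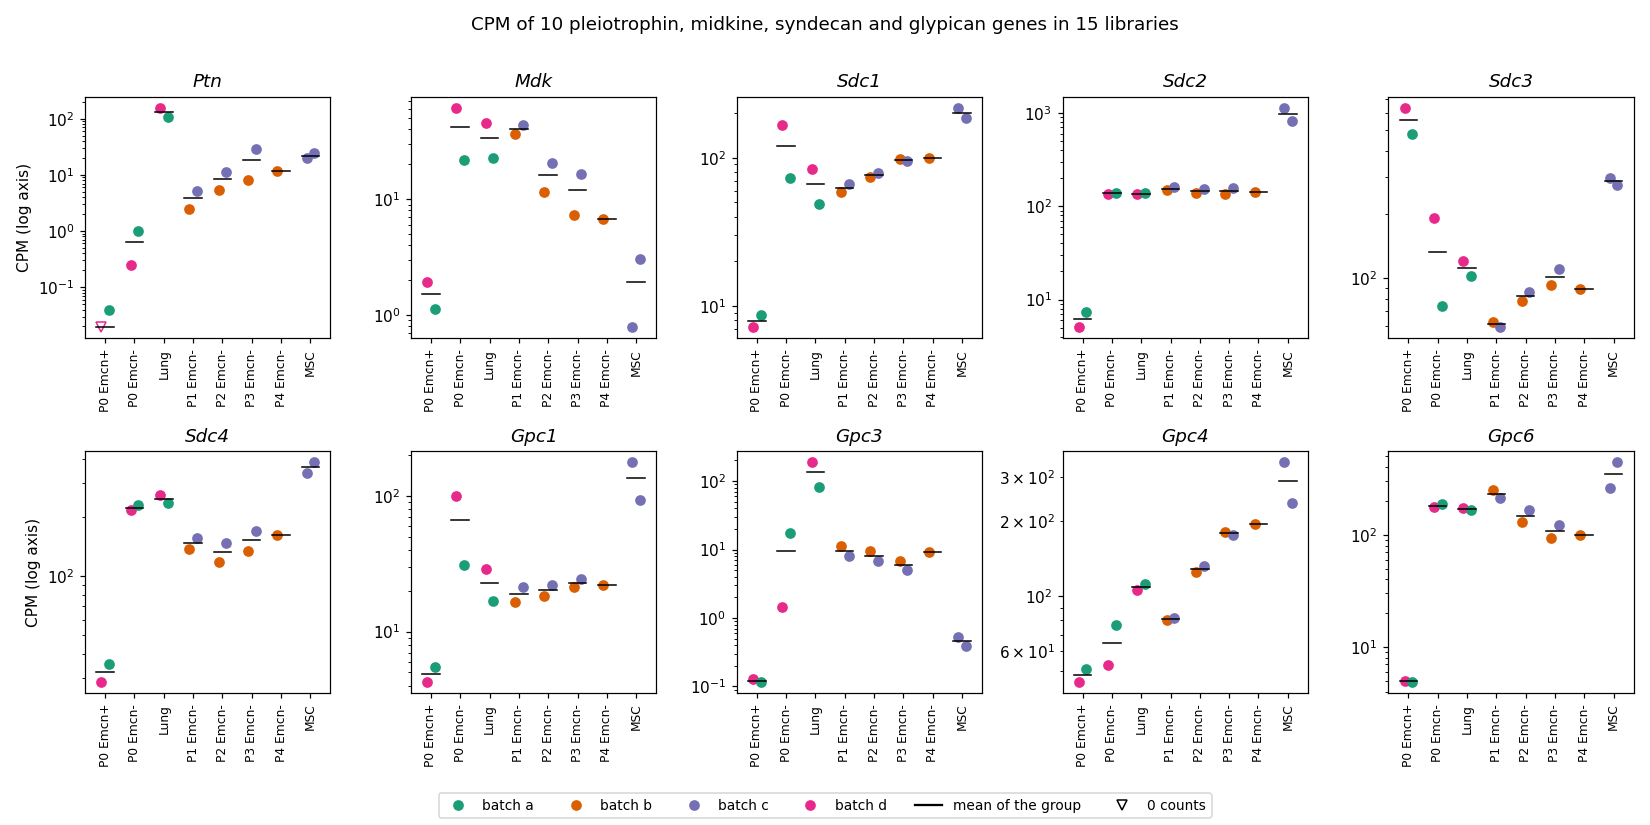
CPM of the 10 genes in each of 15 libraries, on log axes that differ between panels, with points coloured by batch and a bar at the mean of the condition. P0 Emcn+ has the lowest mean for every gene except Sdc3, where it is highest at 637 and 478 CPM, and lung is highest for Ptn and Gpc3.

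Among the syndecans, Sdc3 was the P0 Emcn+ gene. Syndecan-3 is best known from neural tissue and muscle and binds pleiotrophin through its heparan sulfate. Its level was 637 and 478 CPM in P0 Emcn+, followed by MSC at 297 and 276 CPM. P0 Emcn- held 193 and 74.1 CPM, lung 121 and 102 CPM, and the 7 passaged libraries 58.9 to 111 CPM. Both P0 Emcn+ libraries lay above all 13 others. P0 Emcn- replicate 1 held 2.60 times as much as replicate 2, so the P0 Emcn- level is known only roughly. Exons of Sdc3 (chr4:130792537-130826319, plus strand) share 48 and 415 bases with the antisense genes Gm12970 and Gm26716, and reads there could belong to either strand's gene unless counting used strand.

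Sdc1, Sdc2 and Sdc4 differed from Sdc3 in the place of P0 Emcn+, which was lowest, and were highest in MSC. Syndecan-2, a syndecan of mesenchymal cells, stood at 5.04 and 7.34 CPM in P0 Emcn+ but at 1144 and 832 CPM in MSC. In P0 Emcn-, lung and all passages its 11 libraries stayed between 136 and 159 CPM, the narrowest band of any of the 10 genes. Syndecan-4, a focal-adhesion proteoglycan found on most cells, was at 28.7 and 35.7 CPM in P0 Emcn+. P0 Emcn- reached 219 and 230.4 CPM, with 259 and 236 CPM in lung and 339 and 383 CPM in MSC, with the passaged libraries at 118 to 170.4 CPM. Syndecan-1, known from epithelia and plasma cells, was at 7.16 and 8.70 CPM in P0 Emcn+. P0 Emcn- held 167 and 72.6 CPM of Sdc1, lung 84.1 and 48.5 CPM, the passages 58.4 to 98.8 CPM and MSC 218 and 185 CPM. For Sdc1, P0 Emcn- overlapped with lung and with P2, P3 and P4, and lung overlapped with P1 and P2.

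Per length (CPM divided by the union of exons in kb, an approximate scale for comparing genes), Sdc3 made up 87.9% and 81.3% of the summed syndecan level in P0 Emcn+, and 7.32% to 16.0% in every other library. Sdc4 was the largest share in P0 Emcn-, lung and all passages, at 39.0% to 57.4%. Sdc2 led in MSC with 57.5% and 49.0%, where the summed syndecan level was also highest, at 564 and 481 CPM per kb. The sum was 121 and 98.2 CPM per kb in P0 Emcn+ and 119 to 201 CPM per kb in the remaining libraries. The family sum of P0 Emcn+ thus lay near or below the low end of the other libraries and came mostly from Sdc3.

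**Figure D2:**
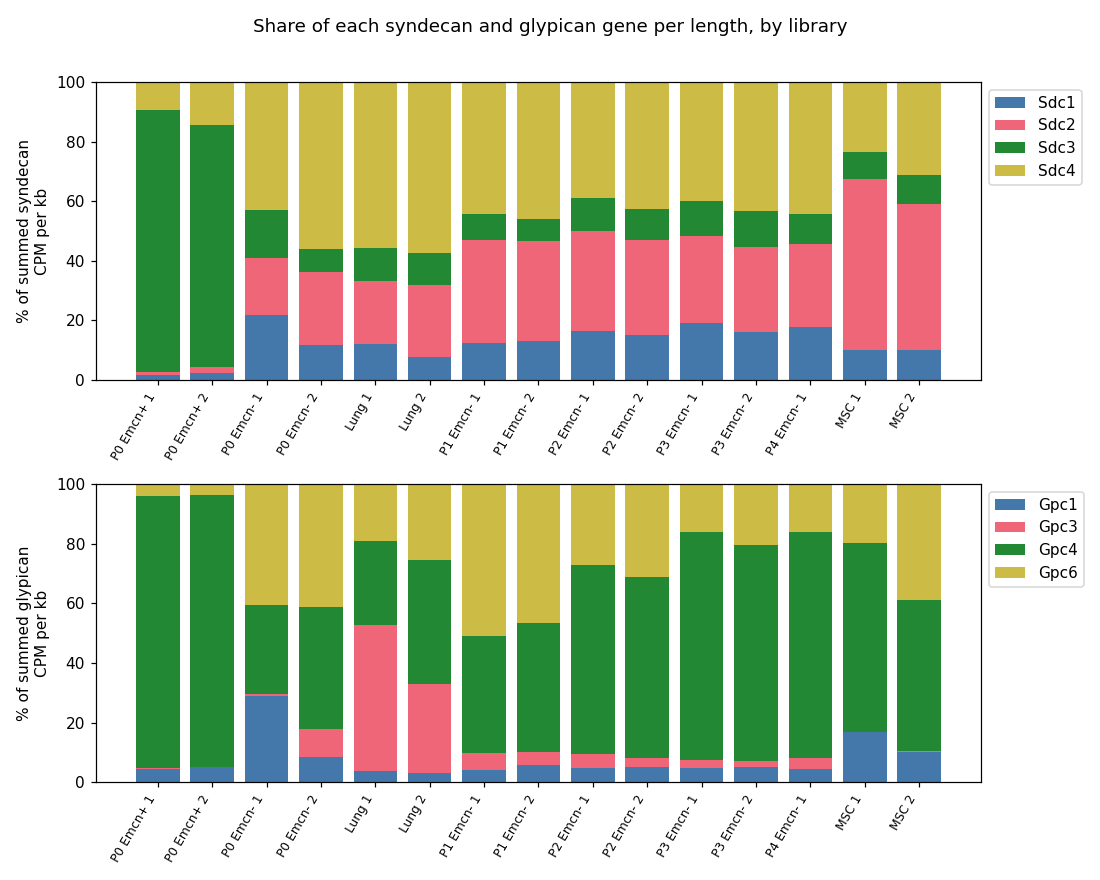
Share of each gene in the summed CPM per kb of the 4 syndecans (upper panel) and the 4 glypicans (lower panel), in %, 1 bar per library. Sdc3 fills 87.9% and 81.3% of the syndecan bars of P0 Emcn+, and the Gpc4 share grows from 39.6% and 43.3% at P1 to 76.0% at P4.

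Glypican-3 (chrX:52272426-52613950, minus strand), a regulator of body size whose loss causes overgrowth, was the second gene set apart in lung. Lung held 188 and 81.2 CPM. The P0 Emcn- libraries had 1.46 and 17.4 CPM, the passages 5.11 to 11.2 CPM, MSC 0.533 and 0.396 CPM and P0 Emcn+ 0.127 and 0.116 CPM. The 2 P0 Emcn- libraries differed 11.9-fold, the widest gap between replicates of any member, and so spanned the whole range of the passaged cells. Gpc4 is its neighbour on chromosome X (chrX:52053021-52165252, minus strand) but did not share its order. P0 Emcn+ had 45.2 and 51.1 CPM of glypican-4, P0 Emcn- had 52.9 and 76.8 CPM, lung had 106 and 112 CPM and MSC had 344 and 237 CPM.

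Glypican-6 (chr14:116925315-117976544, plus strand) was scarce in P0 Emcn+ (5.01 and 4.87 CPM) and more abundant everywhere else. P0 Emcn- had 176 and 187 CPM, with 175 and 166 CPM in lung, and 261 and 443 CPM in MSC. Glypican-1 (chr1:92831645-92860779, plus strand), which binds fibroblast growth factors and VEGF, was again lowest in P0 Emcn+, at 4.25 and 5.49 CPM. P0 Emcn- had 101 and 31.2 CPM, lung 28.7 and 16.7 CPM, the passages 16.4 to 24.5 CPM and MSC 177 and 93.5 CPM. P0 Emcn- and MSC overlapped for Gpc1. Its exons share 977 bases with Ankmy1 on the opposite strand, with the same limit as for Sdc3.

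Per length, Gpc4 was 91.2% of the summed level of the 4 glypican members in both P0 Emcn+ libraries. That sum was only 18.7 and 21.2 CPM per kb there, against 67.5 to 205 CPM per kb elsewhere. It leaves out Gpc2, at 11.1 and 5.68 CPM in P0 Emcn+ replicates 1 and 2, so the Gpc4 share of all glypicans was lower. In lung, Gpc3 took 49.0% and 29.8%. It led in lung replicate 1 and stood behind Gpc4 (41.6%) in replicate 2. Gpc4 and Gpc6 together made up most of the glypican level in MSC and the passages.

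The first comparison asks how cells sorted as Emcn+ and Emcn- from P0 marrow cultures differ. P0 Emcn+ had more Sdc3 and less of the other 9 genes in both libraries. On the fitted log2 scale (first group over second, ± SE, n = 2 and 2) Sdc3 was 2.09 ± 0.36 higher. The 7 genes with the most negative values that also met the limits used for calls (edgeR, adjusted p under 0.05 and an unshrunken log2 fold change beyond 1.5) were Gpc3 at -6.11 ± 1.21, Gpc6 at -5.17 ± 0.27, Mdk at -4.74 ± 0.78, Sdc2 at -4.46 ± 0.23, Sdc1 at -3.89 ± 0.40, Gpc1 at -3.74 ± 0.55 and Sdc4 at -2.77 ± 0.17. Gpc4 differed least, at -0.39 ± 0.21. For Ptn, 1 count in P0 Emcn+ stood against 20 in P0 Emcn-, a ratio of 23.1 with a 95% counting interval of 3.70 to 959 for P0 Emcn- over P0 Emcn+. Limits were met by 7.79% of all 19401 genes tested as higher and by 11.4% as lower, and 61.5% of genes did not overlap between these groups, as was the case for all 10 members. With batch terms, by DESeq2 with or without shrinkage, or without the filter, 8 members met the limits as lower, Ptn being the eighth. Nothing is read from these counts, since the genes were chosen with this contrast known.

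Both batches held both groups, and each gene lay on the same side in each. Sdc3 was higher by 2.69 (batch a) and 1.72 (batch d) as a log2 ratio of CPM, and Gpc3 was at -7.23 and -3.53. The fitted Gpc3 value was -3.51 without P0 Emcn- replicate 2. The marker lists moved with this contrast too. All 10 endothelial genes were higher in both P0 Emcn+ libraries, 8 of 9 stromal and 5 of 6 mural genes were lower, and 5 of 6 macrophage genes were higher (summed 449 to 486 CPM against 184 to 224 CPM). Among the 10 is Emcn itself, on which these cells were sorted, so its difference was set by the sort. The mural sum was at most 103 CPM against 141 to 204 CPM, and the osteolineage sum of 5 genes was 4.31 to 6.53 CPM against 51.9 to 185 CPM. The part of other cell types in the members' values was not tested.

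The wider heparan sulfate machinery was taken from 5 lists of 59 genes, of which 53 passed the filter on low counts. These lists too were chosen with earlier results of these data known, so their calls and medians are no independent test. Here edgeR (quasi-likelihood test, p adjusted over all genes by Benjamini and Hochberg) called 8 higher and 7 lower in P0 Emcn+, beside 19.2% of all genes called in either direction. The median log2 fold change of the 53 was 0.00, against -0.06 over all genes. Among receptors and partners of the growth factors, 2 of 8 tested rose and 1 fell. Integrin beta 3 (Itgb3), whose pairing with Itgav is a pleiotrophin receptor, was at 927 and 931 CPM in P0 Emcn+ against 40.8 and 20.4 CPM (log2 fold change 4.94 ± 0.63, adjusted p = 0.000226). Itga6, a laminin receptor that partners Itgb1, rose by 4.60 ± 0.54 (adjusted p = 0.000127). Lrp1, an endocytic midkine receptor, fell from 7073 and 5489 CPM in P0 Emcn- to 172 and 186 CPM (-5.10 ± 0.31, adjusted p = 2.79e-06).

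Of the 8 other heparan sulfate core proteins 2 rose and 2 fell. Perlecan (Hspg2), the basement membrane proteoglycan, was at 8383 and 6933 CPM in P0 Emcn+ against 1815 and 1105 CPM (2.42 ± 0.35, adjusted p = 0.000498), and agrin (Agrn) rose with it. Betaglycan (Tgfbr3), a TGF-beta co-receptor, fell by 2.31 on the log2 scale (SE 0.20, adjusted p = 1.75e-05), and the hyaluronan receptor Cd44 was at -2.90 ± 0.45 (adjusted p = 0.000794). Chain enzymes moved both ways. Xylt1, which starts the chain, and the sulfotransferases Ndst1 and Hs3st3a1 rose, while Extl2 fell. Sulf1, which removes 6-O-sulfate outside the cell, was at 9.86 and 17.0 CPM against 140.4 and 133.9 CPM (-3.32 ± 0.27, adjusted p = 1.24e-05). Of the 11 genes listed as adaptors, proteases and lipases, syntenin-2 (Sdcbp2) was at 37.1 and 60.1 CPM against 1.46 and 0.504 CPM (5.50 ± 0.73, adjusted p = 0.000288). The syndecan-cutting protease Mmp9 and Notum fell from low levels.

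**Figure D3:**
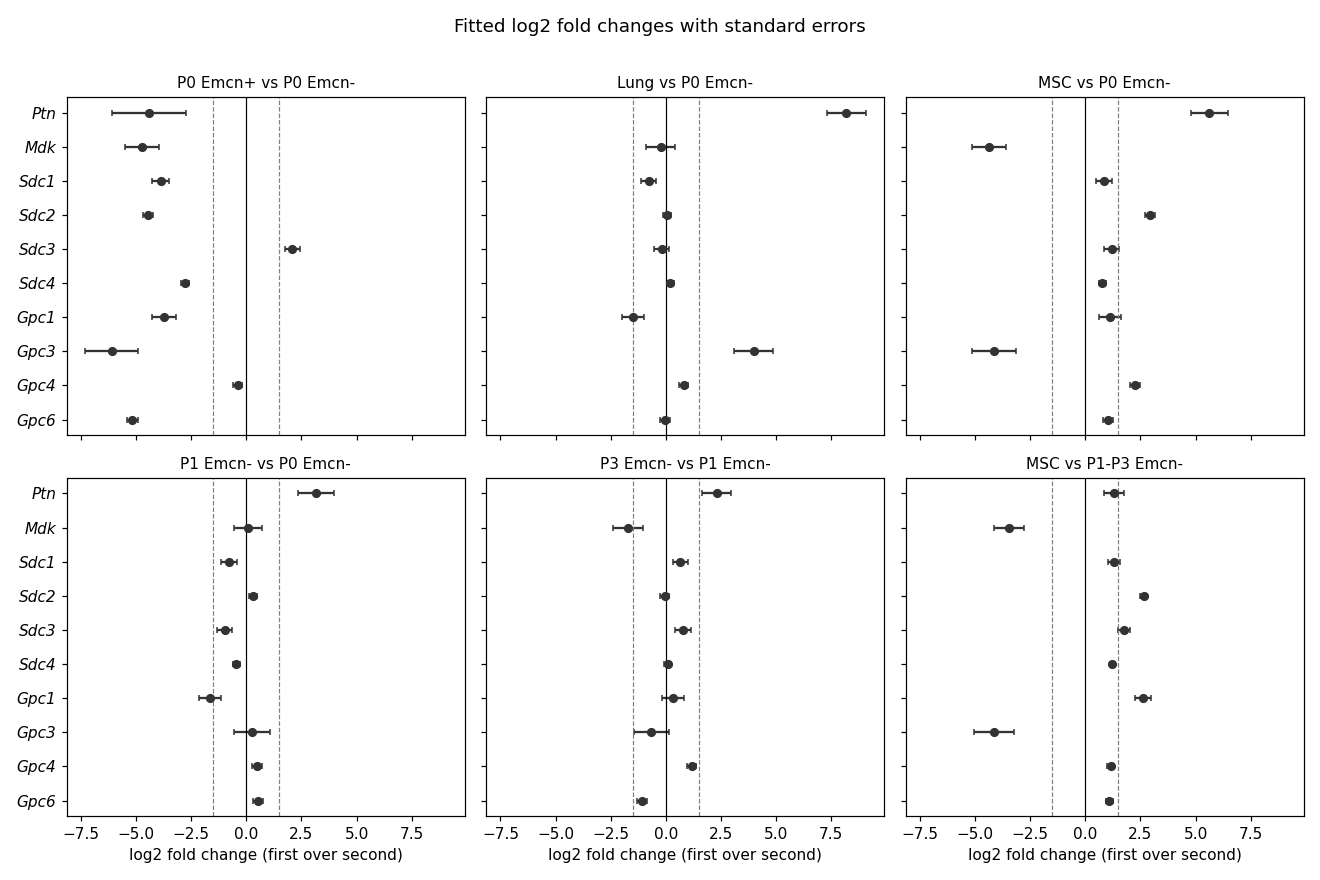
Fitted log2 fold changes of the 10 genes in 6 comparisons, with standard errors as bars and dashed lines at 1.5 in each direction. In P0 Emcn+ against P0 Emcn- only Sdc3 lies to the right of 0, and in lung against P0 Emcn- Ptn (8.18) and Gpc3 (3.99) lie far from the other 8 genes.

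Lung and marrow P0 Emcn- cultures were compared for the organ of origin. P0 Emcn- libraries are shared with the previous comparison and with those of MSC and P1, so these are not independent of each other. Ptn was 8.18 ± 0.89 higher in lung and Gpc3 3.99 ± 0.89 higher, and these 2 met the limits, beside 2.13% of all genes called higher and 1.7% called lower. The other 8 lay between -1.47 ± 0.50 for Gpc1 and 0.82 ± 0.21 for Gpc4. Among them Mdk, Sdc2, Sdc3, Sdc4 and Gpc6 lay between -0.24 and 0.21. Within batches, Ptn was higher by 6.71 (a) and 9.29 (d) and Gpc3 by 2.22 and 7.01, while Sdc3 lay on different sides, 0.46 in batch a and -0.67 in batch d. Gpc3 was at 6.58 without P0 Emcn- replicate 2 and at 3.03 without replicate 1, and met the limits in both. It no longer met them without lung replicate 1 (3.22) or with only lung and P0 Emcn- fitted (3.95). Without P0 Emcn- replicate 2, Gpc1 met them too, at -2.08. The endothelial sum overlapped, at 180.1 to 786 CPM in lung and 72.7 to 268 CPM in P0 Emcn-. The macrophage sum was lower in lung, at 15.8 to 17.4 CPM against 184 to 224 CPM. The stromal sum was lower too, at 13641 to 14832 CPM against 18161 to 23668 CPM. The osteolineage sum was 29.9 to 34.7 CPM in lung against 51.9 to 185 CPM. The part of these cell types was not tested.

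In lung, 4 pathway genes of 53 were called, beside 3.83% of all genes, 2 in each direction. Hs6st2, a 6-O-sulfotransferase, rose from 2.34 and 2.12 CPM to 22.8 and 28.5 CPM (3.57 ± 0.59, adjusted p = 0.00869), and Hs3st3a1 rose from a low level. Collagen XVIII (Col18a1), a basement membrane proteoglycan, fell from 1058 and 919 CPM to 128 and 191 CPM (-2.57 ± 0.45, adjusted p = 0.0105), and Mmp9 fell. By edgeR, Hs6st2 lost its call without P0 Emcn- replicate 1 (adjusted p = 0.0571) and Col18a1 lost it without lung replicate 1 (adjusted p = 0.0856) or with only those groups fitted (adjusted p = 0.0514). The median of the 53 genes and that of all genes were both 0.00.

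MSC were compared with P0 Emcn- and with P1 to P3 Emcn- cells. Against P0 Emcn-, Ptn was 5.62 ± 0.84 higher, Sdc2 2.93 ± 0.21 and Gpc4 2.27 ± 0.22 higher, and Mdk was at -4.37 ± 0.76 and Gpc3 at -4.15 ± 0.99. These 5 met the limits, beside 11.3% of all genes called higher and 7.45% called lower. MSC and P0 libraries share no batch, so batch and cell type cannot be told apart there. Gpc3 no longer met the limits without P0 Emcn- replicate 2 (-1.57), without MSC replicate 1 (-4.41) or 2 (-3.94), or with only these groups fitted (-4.22). Without P0 Emcn- replicate 1, Gpc1, Sdc1 and Sdc3 met them as higher too. Against P1 to P3 (n = 2 and 6), Sdc2 (2.64 ± 0.15), Gpc1 (2.64 ± 0.36) and Sdc3 (1.75 ± 0.26) were higher, and Mdk was at -3.46 ± 0.68 and Gpc3 at -4.14 ± 0.92. They met the limits beside 8.42% of all genes called higher and 5.81% called lower. Ptn, at 1.31 (0.80 with batch terms), overlapped between the groups, and met the limits without replicate 2 of P2 or of P3 (1.68 for P3). Gpc3 no longer met them without MSC replicate 1 (-4.40) or 2 (-3.92). Inside batch c, which holds MSC and 1 library of each passage, the ratios were 2.66 for Sdc2, 2.58 for Gpc1, 1.75 for Sdc3, -3.80 for Mdk, -3.84 for Gpc3 and 0.54 for Ptn. Mural markers stood at 1199 to 1534 CPM in MSC and at 48.1 to 122 CPM in the passages, and osteolineage markers at 126 to 211 CPM against 18.7 to 22.9 CPM, and their part was not tested.

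Hs6st2 had the widest pathway difference in MSC. Its 455 and 409 CPM were 7.67 ± 0.69 above P0 Emcn- on the log2 scale (adjusted p = 4.72e-05, edgeR) and 6.38 ± 0.40 above P1 to P3, which held 2.62 to 8.66 CPM (adjusted p = 8.17e-06). Ext1, a subunit of the heparan sulfate polymerase, rose to 271 and 337 CPM from 58.5 to 70.5 CPM in P1 to P3 (2.16 ± 0.11, adjusted p = 2.75e-06). Col18a1 fell in both comparisons, by 3.62 against P0 Emcn- (adjusted p = 0.000413) and by 2.20 against P1 to P3 (adjusted p = 0.00252), as did Tgfbr3, by 1.55 and 1.63 (adjusted p = 0.000327 and 0.000124), and heparanase (Hpse), by 1.60 and 1.75 (adjusted p = 0.0104 and 0.00365). Cask, a syndecan adaptor, rose against P0 Emcn- by 1.63 ± 0.30 (adjusted p = 0.00253), and was 0.96 without MSC replicate 1. In all, 4 of 53 genes were called higher and 4 lower against P0 Emcn-, beside 18.7% of all genes, and 6 higher and 3 lower against P1 to P3, beside 14.2%. Medians were 0.21 and 0.28, against 0.01 and 0.01 for all genes.

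**Figure D4:**
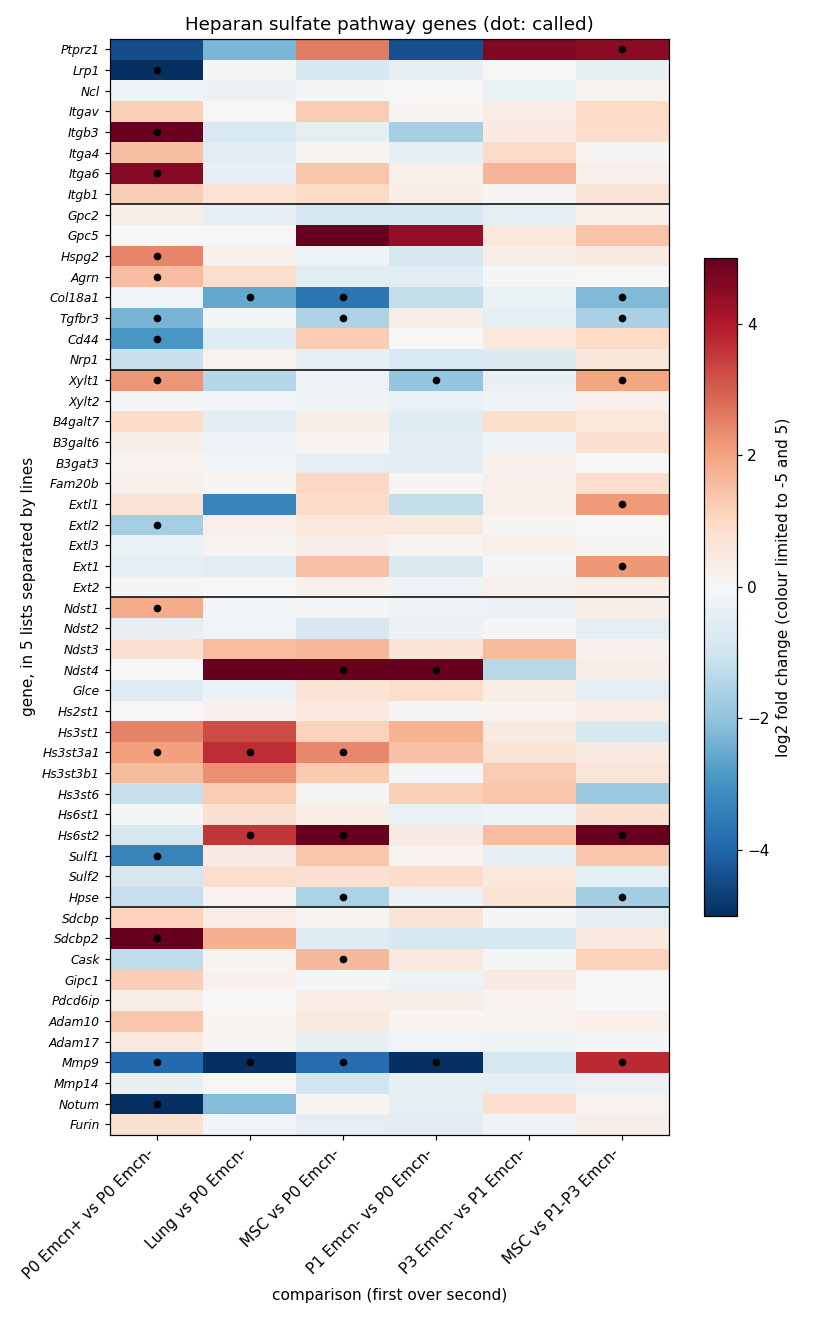
Log2 fold changes (colour, limited to -5 and 5) of the 53 tested heparan sulfate pathway genes in 6 comparisons, grouped by list, with a dot where edgeR called the gene. Dots stand on 15 genes in P0 Emcn+ against P0 Emcn- and on none in P3 against P1.

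The first passage was examined as P1 against P0 Emcn-. Ptn was 3.16 ± 0.83 higher and Gpc1 was at -1.67 ± 0.50, and these met the limits, beside 5.77% of all genes called higher and 3.07% called lower. Neither met them without P0 Emcn- replicate 1 (2.06 and -0.58), without P1 replicate 1 (3.57 and -1.51) or 2 (2.57 and -1.83), or with only P0 Emcn- and P1 fitted (2.95 and -1.68), and Gpc1 did not with ashr shrinkage (-1.16). Without P0 Emcn- replicate 2 they were 4.02 and -2.29, and Gpc3 and Sdc3 met the limits as well. Gpc3, at 0.27, was 2.86 without replicate 2 and -0.70 without replicate 1. The other 7 members lay between -0.98 (Sdc3) and 0.51 (Gpc6). P0 and P1 share no batch, so batch and passage cannot be told apart. Stromal markers summed to 18161 to 23668 CPM at P0 and 6898 to 7784 CPM at P1. Of the 53 pathway genes, Ndst4 was called higher and Xylt1 and Mmp9 lower, beside 8.84% of all genes, and with batch terms 3 were higher and 2 lower. Their median was -0.20, against 0.02 for all genes. Ndst4 was at 0 counts in both P0 Emcn- libraries and at 0.359 to 0.387 CPM at P1. Lung held 0.277 and 0.138 CPM of it, and P3 held 0.226 and 0.0370 CPM. It may have passed the filter on low counts only through P1, where it was high, so nothing is read from its call.

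From P1 to P4, Ptn, Sdc1, Gpc1 and Gpc4 were higher at each of the 5 steps between neighbouring passages of a batch, and Mdk was lower at each of the 5. Over all genes tested, 4.65% were higher and 5.41% lower at each step. Gpc4 was the most regular, at 80.0 and 81.9 CPM at P1, 125 and 132 CPM at P2, 181 and 177 CPM at P3 and 195 CPM at P4. Gpc6 went the other way, from 249 and 214 CPM at P1 through 129 and 166 CPM at P2 to 93.0 and 122 CPM at P3 and 100.2 CPM at P4, and was lower at 4 of 5 steps. Per length the leading glypican therefore passed from Gpc6 at P1, with 50.8% and 46.7%, to Gpc4 at P2, with 63.5% and 60.6%. Sdc1 went from 58.4 and 66.5 CPM to 97.5 and 94.7 CPM at P3, and Sdc3 from 62.7 and 58.9 CPM to 93.0 and 111 CPM.

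Between P1 and P3 the fitted log2 fold changes were 2.30 ± 0.64 for Ptn, -1.72 ± 0.67 for Mdk, 1.18 for Gpc4, -1.08 for Gpc6, 0.78 for Sdc3, 0.66 for Sdc1 and -0.65 for Gpc3. None met the limits by edgeR, beside 0.222% of all genes, and Ptn did by DESeq2. Within batches b and c, Ptn was at 1.72 and 2.48, Mdk at -2.32 and -1.39, Gpc4 at 1.18 and 1.11, and Gpc6 at -1.42 and -0.81. Without P3 replicate 2 the Ptn value was 1.18. Stromal markers summed to 6898 to 7784 CPM at P1 and 4345 to 5564 CPM at P3, and macrophage markers to 66.4 to 218 CPM and 10.4 to 14.6 CPM. Mural markers rose instead, from 48.1 to 49.5 CPM at P1 to 88.8 to 92.0 CPM at P3 and 122 CPM at P4. The part of these cell types was not tested. By edgeR, 10 of the 53 pathway genes had an unadjusted p under 0.05, beside 2634 of all 19401 genes tested. None of the 53 was called by edgeR, and DESeq2 called 1. The median of the 53 was 0.12, against -0.01 for all genes.

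**Figure D5:**
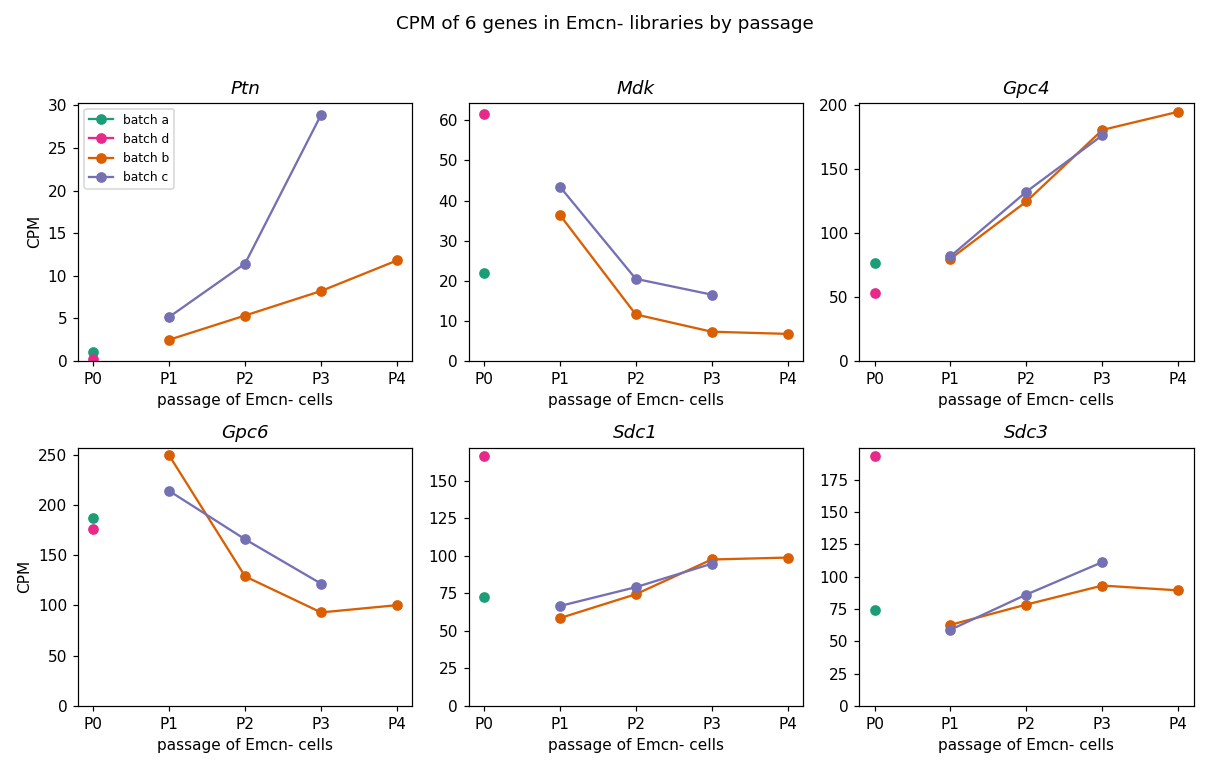
CPM of 6 genes in Emcn- libraries from P0 to P4, on linear axes from 0, with lines joining libraries of the same batch. Gpc4 runs from 80.0 and 81.9 CPM at P1 to 195 CPM at P4, Mdk runs down from 36.4 and 43.5 CPM to 6.76 CPM, and the P0 libraries stand in other batches than the passages.

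Pearson's r of log2(CPM + 1) over the 15 libraries was used to find the genes most like the 2 growth factors among 11154 genes with at least 10 CPM in at least 2 libraries. Libraries of 1 condition share their level, so r mainly follows 8 conditions, and it is given without a test. Closest to Ptn were Ccdc68 (0.93), Pcdh11x (0.91), Stambpl1 (0.90), Map2 (0.89) and Tent5c (0.89). All 5 had their highest mean in lung or MSC, which follows largely from their choice by likeness to Ptn and is no separate result. The size of the differences varied: Tent5c averaged 42.4 CPM in lung and 3.25 CPM in P0 Emcn+, but Stambpl1 only 19.3 CPM in lung and 11.8 CPM in P0 Emcn-. Closest to Mdk were Dtnbp1 (0.97), the tight-junction gene Cldn11 (0.95), Rrp1 (0.95), Fancm (0.95) and the protease gene Adamts15 (0.94). Adamts15 averaged 429 CPM in P0 Emcn-, 479 CPM in lung, 54.6 CPM at P3, 8.71 CPM in MSC and 3.52 CPM in P0 Emcn+. Fancm differed far less, at 16.6 CPM in lung and 11.9 CPM in MSC. Here too the order of conditions follows largely from the choice by likeness. Between the members themselves, Ptn and Mdk had r = 0.17, Sdc1, Sdc2 and Sdc4 had 0.91 to 0.94 with each other, and Sdc3 had -0.41 to -0.43 with these 3.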

How the data were processed

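Libraries were made with the KAPA RNA HyperPrep kit. By the methods, the authors ran nf-core RNASeq 1.4.2 (trimming, mapping by STAR onto GRCm38, Salmon estimates) and merged estimates per gene with tximport. The deposited table holds whole-number counts of 44674 genes and no normalized values. How estimates became whole numbers, and whether strand was used, is not given in the sources used here, and reads shared by similar genes may be split by estimate. Conditions, replicate numbers and batches come from the labels. Members and gene lists were chosen with earlier results of these data known.

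CPM was computed on library totals, and intervals and floors cover counting error only. With edgeR 4.0.16 (R 4.3.3), TMM scaling and filterByExpr (minimum count 10), 19401 genes were fitted by quasi-likelihood over all 15 libraries with 1 coefficient per condition (7 residual degrees of freedom), and p was adjusted by Benjamini and Hochberg over all of them. Calls used limits of 0.05 and, on the log2 scale, 1.5. The study set the same numbers on values shrunken by ashr in DESeq2, while here the second is set on unshrunken edgeR values, with the shrunken ones as an alternative. Pathway genes with full statistics were, per comparison, at most 4 called each way by size of change, with 10 CPM or more throughout the higher group and groups apart. Other called ones are only named. Alternatives were DESeq2 1.42.0 without and with ashr 2.2.63 shrinkage, RLE size factors, no filter, the compared groups alone, batch terms, and each library left out. Batch labels pair the replicates: deviations of same-batch libraries correlated at 0.13 to 0.33 among P0 and lung and at 0.52 to 0.70 among P1 to P3. Batch terms were therefore set within these 2 blocks and cannot remove a difference between them. Per-kb levels and coordinates used GENCODE M21, which holds 44118 of the identifiers. Scripts were tested on simulated counts.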

Additional observations from a re-analysis of the deposited data

How the results depend on the processing

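No value that met the limits changed sign under the alternatives run. Among values of members below the limits, 7 changed sign at least once, 11 times in all, each time with a library left out. They included Gpc3 for P1 against P0 Emcn- (0.27, and -0.70 without P0 Emcn- replicate 1) and, for lung, Mdk (-0.24 to 0.71) and Sdc3 (-0.19 to 0.67), both without that same library. Calls of Ptn, Gpc1 and Gpc3 that an alternative ended stand beside their values above. With only the compared groups fitted, genes called went from 743 to 145 for lung, from 3630 to 2396 for MSC and from 1715 to 968 for P1, each against P0 Emcn-, and from 43 to 153 for P3 against P1. That last count was 303 by DESeq2, 150 with ashr shrinkage, 170 without the filter and 106 with the replicate block as batch terms. Pathway genes called with only the compared groups went from 4 to 2 (lung), from 8 to 4 (MSC against P0 Emcn-), from 3 to 1 (P1) and from 0 to 2 (P3 against P1). By DESeq2 they went from 3 to 5 (P1) and from 0 to 1 (P3 against P1), and the replicate block gave 5 for P1. The causes were not tested.

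Leaving out 1 library at a time gave 406 to 675 genes for lung, 805 to 2196 for P1 and 0 to 41 for P3 against P1, and 2 to 7 pathway genes for lung and 1 to 7 for P1. Lung had 406 without lung replicate 1 and 455 without P0 Emcn- replicate 1. P1 had 805 and 930 without P1 replicate 1 or 2 and 854 without P0 Emcn- replicate 1. P3 against P1 had 0 without P3 replicate 1 or P1 replicate 2 and 3 without P3 replicate 2. A condition left with 1 library borrows its spread from the others. Of 206 values of named pathway genes under alternatives, 194 kept the call and 12 lost it. Those of MSC against P0 Emcn- were Cask, Hpse and Tgfbr3, where edgeR with only the compared groups gave adjusted p = 0.0598 for Cask and 0.0562 for Hpse, and Tgfbr3 was at -1.39 on the log2 scale without P0 Emcn- replicate 2. Of 639 values of members, 558 moved by less than the standard error and 81 by more, 47 of these without a P0 Emcn- replicate. Scaling by total counts put the median of all genes at -0.12 for P1 against P0 Emcn- and at 0.10 for MSC against P1 to P3. Depth limits Ptn in P0 cells and Gpc3 in P0 Emcn+.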
